A study of Mus musculus with 23 samples.

Results

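The regions described here are stretches of open chromatin that lie far from any coding gene in microglia of the mouse striatum. Peaks of ATAC-seq, in which a transposase cuts and tags accessible DNA, were merged across libraries where they shared at least 1 bp. A merged region was kept when at least 3 of 23 libraries had a peak in it. Of 44474 such regions on chromosomes 1 to 19 and X, 1615 (3.63%) lay more than 100 kb from the nearest protein-coding gene body of the GRCm38 annotation. They are called far regions below. A further 11679 regions (26.3%) lay between 1 and 100 kb from a coding gene and are called near distal regions. Most of the others, 30166 regions (67.8%), overlapped the body of a coding gene.

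All mice were male and 8 to 10 weeks old, and all cells came from striatum digested with papain at 37 °C, from which live cells positive for CD11b and P2RY12 and low for CD45 were sorted. CON_SAL (5 libraries) and CON_LPS (7 libraries) came from control offspring, and MIA_SAL (6 libraries) and MIA_LPS (5 libraries) from offspring of mothers with maternal immune activation, abbreviated MIA. Microglia were collected 18 h after an intraperitoneal injection of saline or of lipopolysaccharide (LPS, a bacterial cell wall component) at 4500 EU per g of body weight. The sources used here do not name the agent given to the mothers. Nothing in the labels says that every library is its own animal. Some share the middle number of their identity, though the middle and last numbers together differ between all libraries. What these numbers stand for is not stated, so the spread behind each p-value is that of these libraries and may be technical. Each library had its own list of 33949 to 68312 peaks, and read depth is unknown. The 6 libraries with the fewest open far regions (692 to 873) had 33949 to 40910 deposited peaks, and 5 of those 6 carried an identity number of 01 to 03. The 6 with the most (999 to 1053) had 47766 to 68312 peaks and none of those numbers. Libraries were made from 10560 to 25000 sorted cells. The number was 10560 to 12617 in the 6 libraries with the fewest open far regions and 12500 to 25000 in the 6 with the most. The parts of list length and cell number in these counts were not tested.

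Markers of other cells were checked in the same lists, with a marker counted as open when a peak lay in its gene body or within 1 kb of it. Of 12 microglial markers, 10 to 12 were open in each library, among them P2ry12, Tmem119, Cx3cr1 and Csf1r in all 23. Among markers of neurons (Snap25, Gad1, Gad2, Drd2), astrocytes (Gfap, Aqp4, Gja1, Sox9), oligodendrocytes (Olig1, Olig2, Sox10), endothelium (Cldn5, Tek) and border-associated macrophages (Cd163, Lyve1, Pf4, Ms4a7), those in brackets had no peak in any library. Other markers on those lists did have peaks. In all 23 libraries these included Rbfox3 and Ppp1r1b of neurons and Slc1a2, Slc1a3 and Aldoc of astrocytes. They also included Mbp of oligodendrocytes, Pdgfra of oligodendrocyte precursors and Pecam1, Flt1, Kdr and Cdh5 of endothelium. Mag of oligodendrocytes was open in 22. In each library 2 to 5 of 10 neuronal, 3 to 4 of 8 astrocytic, 3 to 4 of 8 oligodendrocyte and 5 of 7 endothelial markers were open. The border-associated macrophage list of 7 had 1 to 2 open in each saline library and 2 to 3 in each LPS library. Of that list, Mrc1 was open in all 23 libraries, Cbr2 in 19 and F13a1 in 11. Of 8 lymphocyte markers 1 to 2 were open in each library, with Cd4 and Cd79a open in 22 libraries each and the other 6 in none. Of 9 monocyte and neutrophil markers, 0 were open in each of the saline libraries, 1 to 2 in each CON_LPS library and 0 to 2 in each MIA_LPS library. S100a8, which encodes a calcium-binding protein of neutrophils and monocytes, was open in 10 libraries and Camp in 5, while Ccr2, Ly6c2, S100a9, Ngp, Cxcr2, Mpo and Elane had no peak in any library. The part of such cells in the LPS results below was not tested. In bulk material, fewer cells with a site open and less opening per cell cannot be told apart.

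Accessible sites away from promoters are often enhancers, which bind transcription factors and can act on a promoter over long distances along the chromosome. In microglia and other macrophages the lineage factor PU.1, an ETS protein, opens many such sites together with factors of the RUNX, C/EBP, MEF2 and AP-1 families, and inflammatory stimuli add sites bound by AP-1 and NF-kB. Sites in large gene-poor stretches can also be promoters of long non-coding RNAs (lncRNAs). Which gene a far region acts on, if any, was not measured here, so the genes named beside each region give its address only.

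Of the 1615 far regions, 523 (32.4%) overlapped a non-coding gene, a lncRNA gene in 500 of them, and 1092 (67.6%) overlapped no annotated gene. For 58 far regions the RefSeq promoter window of a non-coding gene, from 250 bases before to 50 after its start on GRCm38.p6, overlapped the region, with 63 windows in all. Of these 58, 17 were open in all 23 libraries, 17 could be tested for presence of a peak, 4 were called higher after LPS (23.5% of those tested) and 2 lower (11.8%) by the test described below. Of all regions tested, 16.9% were called higher and 9.29% lower, and of all far regions tested 21.6% and 15.0%, so these few counts are near the general shares. The windows printed next are those at the 6 regions that were called: 4 at regions called higher after LPS (4930471E19Rik, chr10:120636058-120636357, minus strand; Gm32990, chr13:110568462-110568761, plus strand; Gm39130, chr8:10849962-10850261, plus; Gm41043, chr13:101548103-101548402, minus), both at regions called lower (Gm15232, chrX:167102057-167102356, minus; Lncpint, chr6:31218425-31218724, minus), followed by 3 examples, chosen after their values were seen, from regions open in every library (5730522E02Rik, chr11:26210527-26210826, minus; Morrbid, chr2:128429302-128429601, minus; Dubr, chr16:50732724-50733023, minus). Of the 300 bases, 10 lay inside the open region for Gm39130, 131 for Gm41043 and between 243 and 300 for the others. They read 5′ to 3′ on the strand of the gene, with motif matches in capitals.
4930471E19Rik: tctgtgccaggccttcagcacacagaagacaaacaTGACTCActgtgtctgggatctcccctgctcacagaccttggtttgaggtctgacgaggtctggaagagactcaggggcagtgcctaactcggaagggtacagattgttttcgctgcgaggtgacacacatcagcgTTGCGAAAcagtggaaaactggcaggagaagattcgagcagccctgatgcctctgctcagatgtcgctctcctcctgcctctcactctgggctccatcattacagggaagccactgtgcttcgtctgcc
Gm32990: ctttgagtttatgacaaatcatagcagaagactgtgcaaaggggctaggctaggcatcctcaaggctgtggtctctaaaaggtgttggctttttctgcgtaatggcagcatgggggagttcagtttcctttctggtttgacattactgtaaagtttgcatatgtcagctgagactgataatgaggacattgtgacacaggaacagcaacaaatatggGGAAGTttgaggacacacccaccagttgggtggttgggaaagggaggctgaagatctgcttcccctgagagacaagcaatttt
Gm39130: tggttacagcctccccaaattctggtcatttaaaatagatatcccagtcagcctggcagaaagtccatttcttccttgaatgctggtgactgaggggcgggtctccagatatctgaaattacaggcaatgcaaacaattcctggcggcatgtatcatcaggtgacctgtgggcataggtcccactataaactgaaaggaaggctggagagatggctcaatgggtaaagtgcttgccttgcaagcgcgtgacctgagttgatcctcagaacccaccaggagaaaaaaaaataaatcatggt
Gm41043: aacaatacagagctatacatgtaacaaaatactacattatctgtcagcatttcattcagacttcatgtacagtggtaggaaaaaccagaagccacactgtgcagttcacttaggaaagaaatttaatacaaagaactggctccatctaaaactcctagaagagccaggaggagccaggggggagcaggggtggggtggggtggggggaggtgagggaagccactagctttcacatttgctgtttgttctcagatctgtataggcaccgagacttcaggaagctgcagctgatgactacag
Gm15232: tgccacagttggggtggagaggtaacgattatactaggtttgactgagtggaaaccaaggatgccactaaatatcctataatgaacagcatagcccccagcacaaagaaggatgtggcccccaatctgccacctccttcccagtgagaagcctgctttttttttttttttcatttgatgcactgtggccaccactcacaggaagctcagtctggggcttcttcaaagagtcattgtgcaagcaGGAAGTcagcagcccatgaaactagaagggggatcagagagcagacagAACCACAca
Lncpint: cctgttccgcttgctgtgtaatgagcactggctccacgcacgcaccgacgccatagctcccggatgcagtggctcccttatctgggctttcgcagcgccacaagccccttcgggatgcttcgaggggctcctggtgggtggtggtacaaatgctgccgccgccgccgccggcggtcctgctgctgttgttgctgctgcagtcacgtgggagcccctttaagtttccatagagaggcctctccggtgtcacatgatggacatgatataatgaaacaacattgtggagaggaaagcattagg
5730522E02Rik: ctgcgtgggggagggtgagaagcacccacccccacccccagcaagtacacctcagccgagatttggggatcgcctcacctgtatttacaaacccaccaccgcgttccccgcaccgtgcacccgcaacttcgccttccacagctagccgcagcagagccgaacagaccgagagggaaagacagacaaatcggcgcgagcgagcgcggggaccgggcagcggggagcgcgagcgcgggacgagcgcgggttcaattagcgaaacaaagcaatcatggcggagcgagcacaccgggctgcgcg
Morrbid: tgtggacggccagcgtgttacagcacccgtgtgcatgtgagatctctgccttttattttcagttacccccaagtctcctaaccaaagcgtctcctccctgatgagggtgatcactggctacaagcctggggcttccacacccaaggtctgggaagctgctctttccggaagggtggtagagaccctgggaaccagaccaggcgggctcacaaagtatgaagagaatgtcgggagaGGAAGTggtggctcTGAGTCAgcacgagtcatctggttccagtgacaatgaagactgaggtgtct
Dubr: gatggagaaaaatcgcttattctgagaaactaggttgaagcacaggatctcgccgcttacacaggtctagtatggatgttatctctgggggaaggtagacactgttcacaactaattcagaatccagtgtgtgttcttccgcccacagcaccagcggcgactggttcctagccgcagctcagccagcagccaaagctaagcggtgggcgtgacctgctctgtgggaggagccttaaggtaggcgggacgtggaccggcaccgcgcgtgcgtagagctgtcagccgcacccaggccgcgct

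Capitals mark matches, on either strand, to 6 motifs: GGAAGT for ETS factors, TGANTCA for AP-1, AGNGGGCGC for a CTCF core, GGGANTTCC for NF-kB, TTGCGNAA for C/EBP and TGTGGTT for RUNX. A match to the NF-kB letters can contain the ETS letters. The 4930471E19Rik window held 1 AP-1 and 1 C/EBP match, Morrbid 1 ETS and 1 AP-1 match, Gm15232 1 ETS and 1 RUNX match and Gm32990 1 ETS match. The windows of Gm39130, Gm41043, Lncpint, 5730522E02Rik and Dubr held none of these letters. Over the 63 windows at far regions, 36.5% held the ETS motif, against 23.7% of all 32544 promoter windows in the table. The shares were 12.7% and 7.79% for AP-1, 11.1% and 5.29% for RUNX, 4.76% and 2.88% for the CTCF core, 3.17% and 1.69% for NF-kB, and 1.59% and 0.805% for C/EBP. The last 3 pairs rest on 3, 2 and 1 windows at far regions. The 63 windows were picked for overlap with an open region and include overlapping windows of the same gene. The 32544 were not picked for openness, so the differences cannot be read as particular to far regions. A match is a description of letters and not of a bound site. Only 1 microRNA hairpin, Mir7214, lay within 1 kb of a far region.

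Far regions were as wide as near distal regions, with a median of 407 bp against 397 bp, but were open in fewer libraries. The median far region had a peak in 12 of 23 libraries and the median near distal region in 14. All 23 libraries had a peak at 298 far regions (18.5%) and at 2665 near distal regions (22.8%). Only 3 to 5 libraries had one at 367 far regions (22.7%) and at 2182 near distal regions (18.7%). Peaks were ranked by the authors' −log10 p within each library's list, cut to the same number of best peaks in every library, and the rank score of a region is the percentage of that list its best peak reaches, from 100 for the top peak down to 0 without a peak. The mean rank score over the 23 libraries had a median of 14.9 at far regions, 18.2 at near distal regions and 26.1 over all regions. Among regions open in all 23 libraries, the medians were 64.1 for far and 64.2 for near distal regions.

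The share of regions open in all libraries was smaller at greater distances, and that of rarely open regions larger. Distances of far regions had a median of 170 kb and a 90th percentile of 359 kb. All 23 libraries had a peak at 19.5% of the 1222 regions at 100 to 250 kb, at 15.5% of the 323 at 250 to 500 kb and at 14.3% of the 70 beyond 500 kb. Just below the limit, at 50 to 100 kb, the share was 20.1% of 1584 regions. The values change gradually across 100 kb, and the limit marks no step. At its edge, the nearest region inside the limit (chr5:148652943-148653403) lay 100063 bp from Ubl3 and was open in 8 LPS and no saline libraries. The nearest one outside (chr5:64701783-64702380) lay 99989 bp from a coding gene and was open in 21 libraries.

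**Figure D1:**
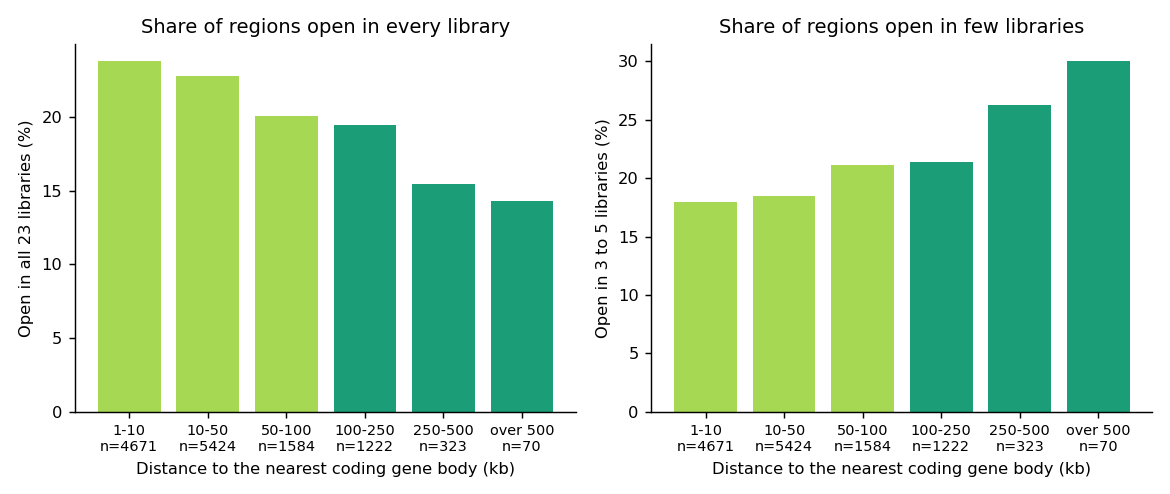
Share of distal regions open in all 23 libraries (left) and in 3 to 5 libraries (right), in percent of the regions in each band of distance to the nearest coding gene body in kb. Dark bars are far regions. From 1 to 10 kb to over 500 kb the left share goes from 23.8% to 14.3% and the right share from 18.0% to 30.0%.

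In each of the 23 libraries a smaller share of far than of near distal regions was open. Far regions with a peak made up 58.6%, 54.1%, 45.4%, 64.6% and 65.2% of all far regions in the 5 CON_SAL libraries. In MIA_LPS the values were 59.8%, 62.5%, 52.1%, 55.9% and 62.8%. CON_LPS ranged from 50.7% to 62.8% and MIA_SAL from 42.8% to 61.9%, so all 4 groups overlapped. The difference from near distal regions ran from −1.75 percentage points (CON_SAL 5) to −9.34 (MIA_LPS 4). The median rank score of the far regions open in a library was also below that of near distal regions in 22 of 23 libraries, MIA_LPS 5 being the exception by 0.14.

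**Figure D2:**
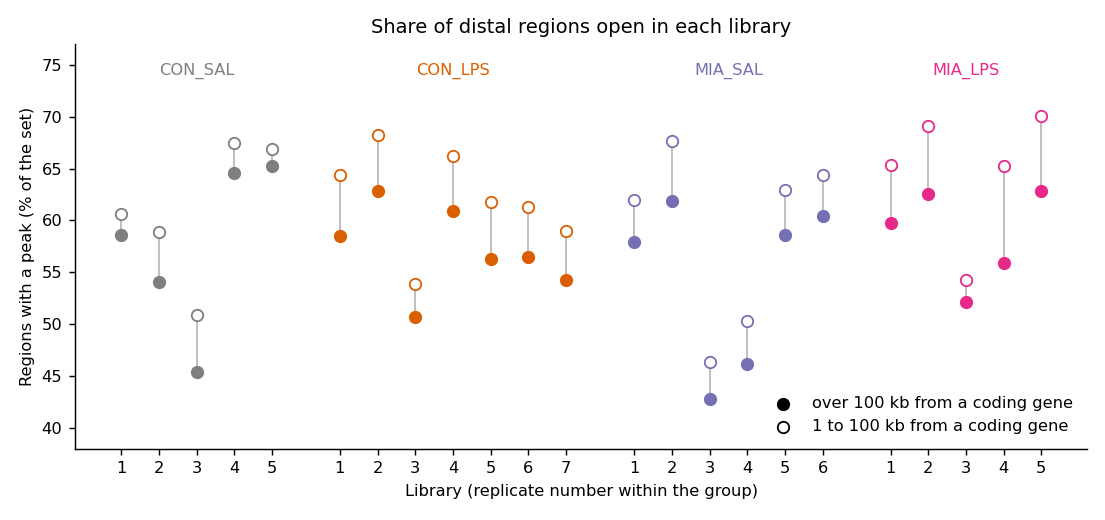
Percentage of far regions (filled) and near distal regions (open circles) with a peak, for each library, by group and replicate number. The filled point lies under the open one in all 23 libraries, and the lowest library is MIA_SAL 3 at 42.8%. The vertical axis starts at 38%.

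Libraries of the same treatment shared more open far regions than libraries of different treatments. The share of far regions open in both libraries of a pair, out of those open in either, averaged 64.3% ± 5.7 (SD, 56 pairs) within a group. Between control and MIA libraries of the same treatment it averaged 64.9% ± 5.72 (65 pairs). Between saline and LPS libraries it averaged 52.4% ± 3.35 (132 pairs). For near distal regions the values were 67.1%, 67.5% and 58.8%, and for all regions 74.1%, 74.4% and 67.5%. Pairs share libraries, so these are given as a description.

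Far regions were unevenly spread over the stretches between coding genes. The annotation has 1537 stretches over 200 kb between neighbouring coding genes, and 359 of them (23.4%) held a far region. Another 8 far regions lay beyond the first or last coding gene of a chromosome. The 44 stretches with 10 or more held 721 far regions, 44.6% of the total, on 4.28% of the length that lies over 100 kb from a coding gene (31.6 of 738 Mb). These stretches were picked by their count, which by itself raises their share, and no expected share was computed. The most, 34, lay between Klf14 and Mkln1, the stretch that holds the lncRNA gene Lncpint. Then came 31 between Id2, an inhibitor of basic helix-loop-helix factors, and Rnf144a, 25 between Runx1, a myeloid and blood transcription factor, and Setd4, and 22 each between Ly86 and Rreb1, Sall1 and Tox3, and Uaca and Tle3. Sall1 encodes a transcription factor that marks microglia among brain macrophages. By chromosome, the density was 6.47 per Mb of such length on chromosome 10 and 5.19 on chromosome 13, against 2.18 overall and 0.362 on X, where 21 far regions lay.

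The first comparison asks which regions open or close after LPS. Presence of a peak was compared between 12 LPS and 11 saline libraries by an exact conditional test stratified by offspring group (common odds ratio, two-sided), over all regions for which the number of open libraries allows a p of 0.01 or less. P-values were adjusted by Benjamini-Hochberg over all 15295 regions tested, and a call needs an adjusted p below 0.05. Of 1615 far regions, 713 could be tested, with a peak in 5 to 18 libraries. Another 555 were open in too many and 347 in too few. After LPS, 154 far regions were called higher (21.6% of those tested) and 107 lower (15.0%). Over all regions tested, 16.9% were called higher and 9.29% lower. Near distal regions gave 18.7% and 8.06%. The share called lower thus stood above both, and whether it is particular to far regions was not tested. The count of lower calls depended on the processing. It was 49 of 1148 tested with all deposited peaks, where 2.17% of all regions tested were called lower. It was 48 of 825 tested where peaks had to cover 50% of a region, and 63 when regions of any attainable p were tested. Shares over all regions are not given for either of these settings. Higher calls were 59.0% of the far regions called. Among all deposited peaks, without shortening the lists, this was 72.3%, and 72.6% where peaks had to cover 50% of a region.

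The rank score was compared with limma on all 44474 regions, which uses regions open everywhere too. It called 275 far regions higher (17%) and 270 lower (16.7%) after LPS, against 12% and 11.3% of all regions and 15.0% and 11.4% of near distal regions. Of the 154 and 107 called by presence, 143 and 102 were also called in the same direction by rank. Rank called a further 103 higher and 120 lower among far regions whose presence could not be tested. Of the 298 far regions open in all libraries, 41 rose and 60 fell in rank. For untested regions and for those open in all libraries, the matching counts over all regions are not given. These counts therefore describe far regions only. Higher calls were 50.5% of the far regions called by rank, and 65.8% with all deposited peaks and 62.8% with the 50% cover. The counts themselves depended on the processing: 164 were lower with all deposited peaks, and 178 when peaks under a −log10 q of 5 were dropped. With the 50% cover 159 were higher and 94 lower, and with lists cut to 50% of their length 105 and 100. Over all far regions the median rank difference was −0.97, with 5% of them under −25.8 and 5% over 33.8. Over all regions the median was −0.48.

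**Figure D3:**
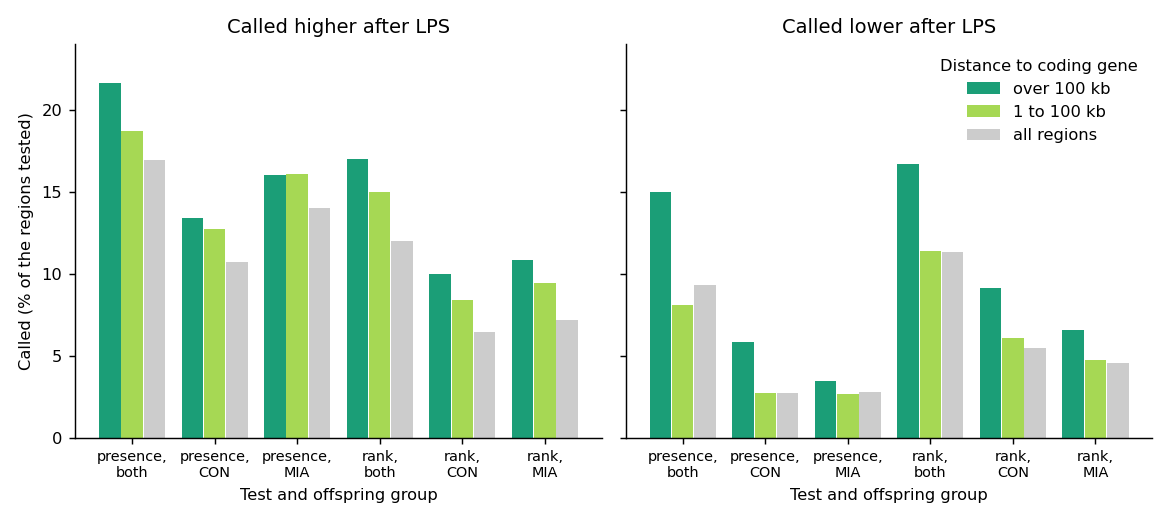
Regions called higher (left) and lower (right) after LPS, in percent of the regions tested, by presence of a peak and by rank score, in both offspring groups together and in each. Bars stand for far regions, near distal regions and all regions. In the comparison of both groups the far regions stand at 21.6% and 15.0% by presence and at 17% and 16.7% by rank.

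At 17 far regions all 12 LPS libraries had a peak and none of the 11 saline libraries did, and at 1 the reverse held. The matching counts over all regions are not given. One of the 17, and the one with the largest difference in rank score, was chr12:25516548-25517151, 420 kb from Id2 and 790 kb from Rnf144a. Its rank score was 0 in the 11 saline libraries, between 46.1 and 78.2 (median 58.5) in CON_LPS, and 53.6, 70.7, 73.2, 48.4 and 70.3 in MIA_LPS. The groups did not overlap, and the rank score differed by 62.3 ± 5.46 (SE; limma, adjusted p = 3.18e-11; adjusted p = 0.000155 in the exact presence test). That presence value is the smallest in the table and was shared by each complete separation.

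The next sites, other complete separations, are given with coding genes beside them. The site chr16:55550905-55551273 lay within the lncRNA gene Gm45968, 229 kb from Zpld1 and 260 kb from Nfkbiz, which encodes an inducible nuclear IkB protein. Its score was 28.0 to 63.0 (median 55.2) in CON_LPS. In MIA_LPS it was 52.4, 61.7, 63.6, 26.7 and 69.2, and in saline libraries 0 (difference 52.2 ± 5.78, SE; limma adjusted p = 6.34e-09). At chr10:17347734-17348117, 375 kb from Cited2, a transcriptional co-regulator, CON_LPS ranged from 29.3 to 59.9 (median 49.1) and MIA_LPS read 56.3, 54.1, 73.3, 48.0 and 50.9. At chr10:117993777-117994432, which lies 148 kb from Rap1b and 147 kb from Mdm1, CON_LPS ranged from 37.5 to 72.5 and MIA_LPS from 34.6 to 66.9. All saline libraries were at 0 at both sites.

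At chr4:55732042-55732434, 200 kb from Klf4, a zinc finger transcription factor of monocytes and macrophages, CON_LPS ranged from 5.03 to 61.3 (median 32.9). MIA_LPS read 68.1, 37.7, 41.9, 58.8 and 50.4. At chr15:62096576-62097155, inside the lncRNA gene Pvt1 and 106 kb from Myc, CON_LPS ranged from 15.0 to 67.1 (median 24.8), while MIA_LPS read 54.8, 42.5, 60.5, 56.2 and 45.6. The difference of the LPS effect between offspring groups there was 21.9 (limma, unadjusted p = 0.0586). The 10 named also include chr12:25283732-25284141, 188 kb from Id2, and sites beside Hs6st1, Gm46911 and Hmga2, all at 0 in the 11 saline libraries and open in all 12 LPS libraries. The site between Hmga2 and Msrb3 (chr10:120635803-120636502) covers the whole 4930471E19Rik promoter window printed above. Its rank score lay between 38.6 and 66.1 in CON_LPS and read 52.7, 51.3, 53.1, 53.6 and 39.1 in MIA_LPS.

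The one complete loss was at chr17:10000976-10001288, 205 kb from Qk, which encodes an RNA-binding protein. CON_SAL read 54.8, 65.6, 46.3, 33.9 and 51.9, MIA_SAL ranged from 31.6 to 60.9 (median 44.9), and all 12 LPS libraries were at 0. The rank score fell by 48.2 ± 5.27 (SE; limma adjusted p = 4.72e-09). The largest fall among the regions named was at chr4:54469962-54470557, 474 kb from Zfp462. CON_SAL read 73.5, 48.1, 36.6, 64.8 and 67.1 and MIA_SAL ranged from 46.3 to 66.4. Of the LPS libraries 1 CON_LPS library had a peak, with a score of 4.53 (difference −57.2 ± 5.4, SE; limma adjusted p = 1.61e-10).

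Other far regions lost their peak in nearly all LPS libraries. Between Cd83, a surface protein of activated antigen-presenting cells, and Jarid2, the site chr13:44278789-44279321 was open in 5 of 5 CON_SAL, 5 of 6 MIA_SAL and no LPS libraries. CON_SAL read 16.8, 44.6, 25.5, 36.8 and 61.0 there. At chr15:24990096-24990606, 373 kb from Basp1 and inside the lncRNA gene Gm2824, CON_SAL read 51.8, 43.6, 26.2, 38.3 and 34.7, and no LPS library had a peak. Near Sox4, a transcription factor of progenitor cells, chr13:28573148-28573682 was open in 5 CON_SAL, 4 MIA_SAL and no LPS libraries. Sites beside Cadm1, Enc1, Fam155a, Galr1 and Msc complete the 10, with a peak in 10 or 11 of 11 saline libraries and in 0 or 1 of 12 LPS libraries. Among these, chr18:81751731-81752297, between Sall3 and Galr1 and 640 kb from the nearer, is the most distant.

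**Figure D4:**
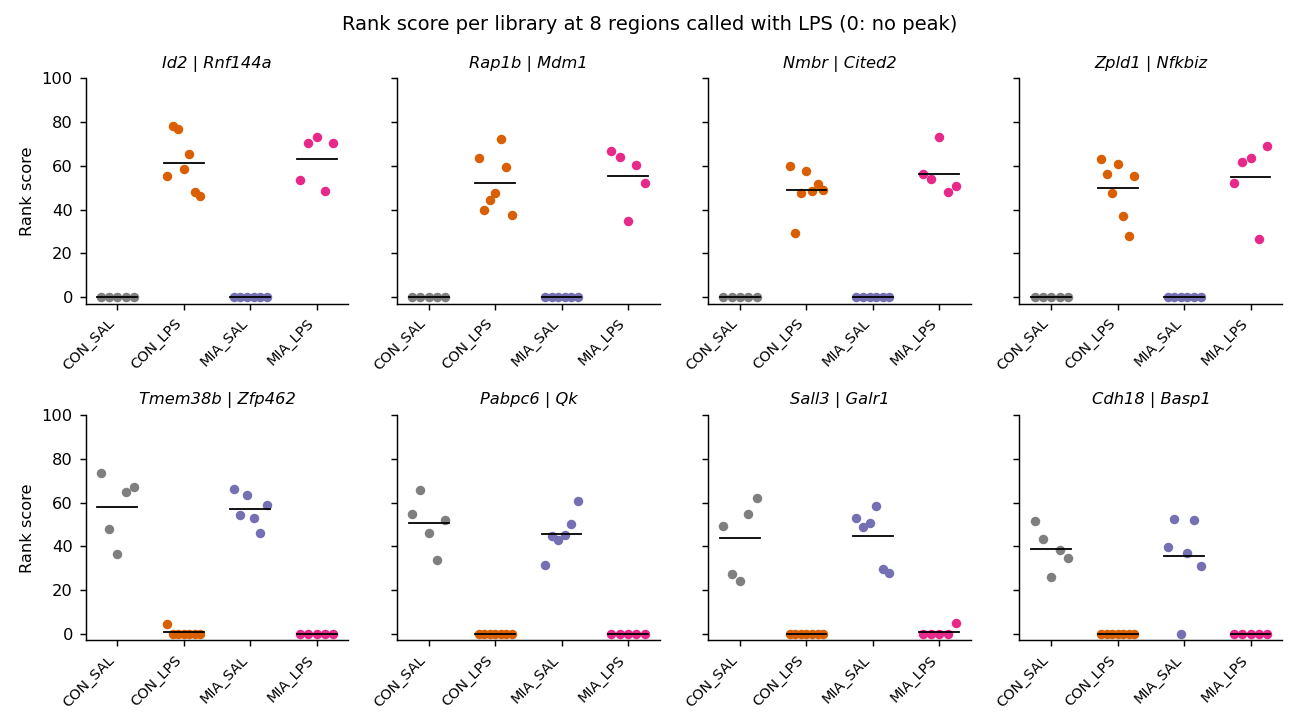
Rank score in each library (points) and group mean (line) at 8 far regions called by presence: the 4 called higher with the largest and the 4 called lower with the largest rank differences among the 10 named first in each direction. Panel titles give the coding genes on either side. In the upper row all saline libraries are at 0; in the lower row no LPS library is above 4.87.

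Far regions were called in 154 stretches, of which 98 held a single call. In 39 of the 56 stretches with 2 or more calls all were in 1 direction and 17 held both, which was not set against the split expected from the calls as a whole. Of all far regions tested 21.6% were called higher and 15.0% lower, and of all regions tested 16.9% and 9.29%. The stretches named next are examples, and their counts were not tested against these shares. Between Id2 and Rnf144a, 11 of 17 tested far regions were called higher and none lower. They lay 144 to 420 kb from Id2, and the largest rank difference, 74.6, was at chr12:25378068-25378534, open in 4 saline and all 12 LPS libraries. Between Zpld1 and Nfkbiz all 4 tested were called higher, and between Slc7a11, the cystine-glutamate exchanger, and Noct 4 of 5 were. Between Runx1 and Setd4 none of 10 tested was called, and rank called 4 higher and 1 lower of 25. Between Sall1 and Tox3, 4 of 10 tested were called lower and 1 higher, and rank called 9 lower and 1 higher of 22. At chr8:89163098-89163472, 119 kb from Sall1, MIA_SAL ranged from 18.3 to 50.6 and CON_SAL read 48.4, 11.7, 28.5, 54.5 and 53.7. All 5 MIA_LPS libraries were at 0 there, while 4 of 7 CON_LPS libraries had a peak of at most 30.1.

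**Figure D5:**
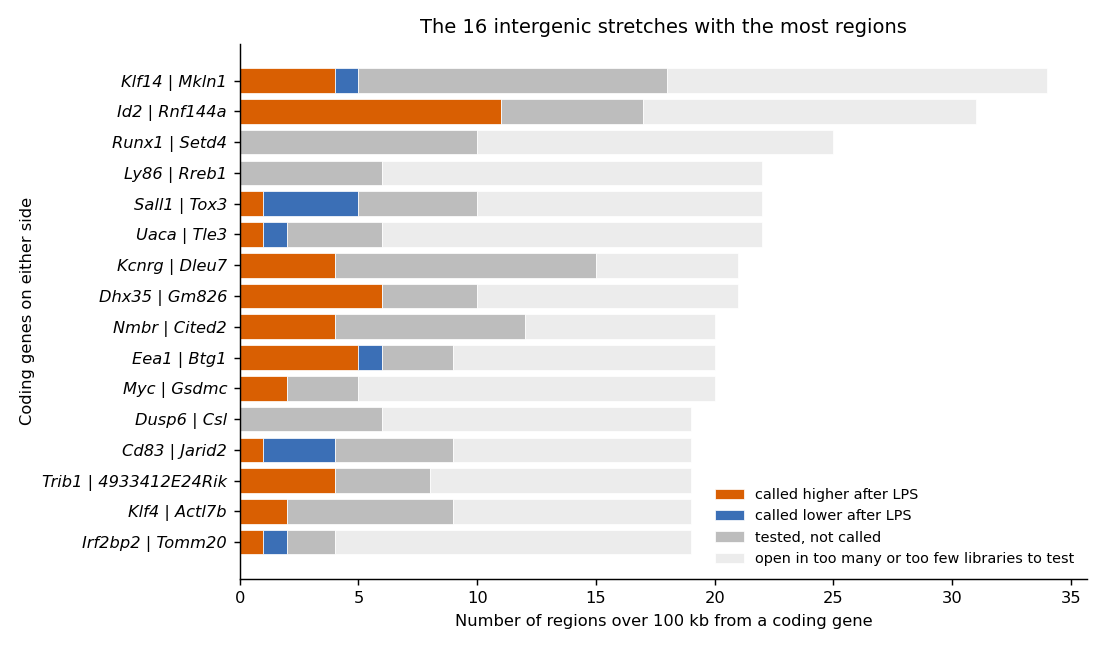
Number of far regions in the 16 intergenic stretches that hold the most, by their result in the presence test of LPS against saline. Labels give the coding genes on either side. The bar between Id2 and Rnf144a holds 11 called higher and none lower, and the bar between Sall1 and Tox3 holds 4 called lower and 1 higher.

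Far regions were also counted by lists of genes next to them. Of 40 microglial and myeloid transcription factor genes, 14 had a far region beside them, 178 in all, of which 24 of 78 tested were called higher (30.8%) and 6 lower (7.69%). Of the 24, 11 lay beside Id2, where 17 were tested, 3 each beside Zeb2 and Bcl6, and 2 each beside Klf4 and Klf6. Of the 6 lower calls, 4 lay beside Sall1 and 1 each beside Maf and Nr4a3. Zeb2 is a zinc finger repressor of macrophage lineages and Bcl6 a repressor of inflammatory genes. Beside 6 of 45 inflammatory genes lay 48 far regions, of which 10 of 21 tested were called higher (47.6%) and 2 lower (9.52%). The 10 were beside Nfkbiz (4), Slc7a11 (4) and Tnfaip3 (2), an inhibitor of NF-kB signalling, and both lower calls were beside Marcks, which encodes an actin-binding kinase substrate. Over all far regions tested the shares were 21.6% and 15.0%, and over all regions tested 16.9% and 9.29%. The differences from these shares were not tested.

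The same counts were made for genes of neurons. Beside 20 of 73 neuronal adhesion and synaptic genes lay 68 far regions, of which 1 of 24 tested was called higher (4.17%) and 5 lower (20.8%), against 21.6% and 15.0% of all far regions tested. Of the 5, 2 were beside Ctnna2 and 1 each beside Cdh18, Csmd3 and Adgrl2. Rank called 3 of the 68 higher and 13 lower. Beside 11 of 40 neurodevelopmental transcription factor genes lay 26 far regions, with 0 of 12 tested called higher and 2 lower, both beside Tshz2, and rank called 1 higher and 7 lower. Over all far regions rank called 17% higher and 16.7% lower. Over all regions rank called 12% and 11.3%, and presence 16.9% and 9.29% of those tested. The differences from these shares were not tested. Regions that share a neighbour are not independent of each other, and these counts do not test the lists.

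Each offspring group was then tested alone with Fisher's exact test. In control offspring (7 LPS against 5 saline libraries) 30 of 224 tested far regions were called higher (13.4%, against 10.7% of all regions tested) and 13 lower (5.8%, against 2.74%). In MIA offspring (5 against 6) 42 of 262 were called higher (16.0%, against 14.0%) and 9 lower (3.44%, against 2.8%). Neither group kept a call (0 in each) when regions of any attainable p entered the adjustment. By rank, limma called 161 higher (9.97%, against 6.45%) and 147 lower (9.1%, against 5.44%) in control offspring. In MIA offspring it called 174 higher (10.8%, against 7.15%) and 106 lower (6.56%, against 4.57%).

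Far regions called in one offspring group mostly moved the same way in the other, whose libraries the call did not use. All 30 far regions called higher in control offspring were open in a larger share of LPS than of saline libraries in MIA offspring, by a median of 100 percentage points, and 17 were called in both. Of the 13 called lower, 12 moved the same way and 1 the opposite way, and 1 was called in both. All 42 called higher in MIA offspring moved the same way in control offspring (median 85.7 points), as did all 9 called lower. The matching shares over all regions are not given, so these counts describe far regions only. At chr15:67481569-67482154, called in MIA offspring and 305 kb from St3gal1, a sialyltransferase gene, CON_LPS ranged from 65.7 to 79.9 and MIA_LPS read 84.1, 77.6, 81.5, 62.8 and 70.5. Its only saline library with a peak was CON_SAL 3, at 37.3. At chr9:52289004-52289702, called in control offspring and 120 kb from Zc3h12c, which encodes a zinc finger protein related to a regulator of cytokine mRNA, CON_LPS ranged from 32.7 to 71.6. CON_SAL was at 0, MIA_LPS ranged from 44.4 to 71.1, and 2 of 6 MIA_SAL libraries had a peak there, of up to 37.5.

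The second comparison asks whether these regions differed between offspring of mothers with and without immune activation. No far region was called between MIA and control offspring. The exact test over both treatments tested 571 far regions and called none, as over all 13114 regions tested (0.0%). It gave an unadjusted p under 0.05 for 9 far regions (1.58% of those tested, against 2.59% of all regions tested). Within saline libraries none of 165 was called (0.0% of all regions), and within LPS libraries none of 161 (0.0% of all regions). The unadjusted exact p was under 0.05 at 2 far regions after saline (1.21%, against 0.771% of all regions tested). After LPS this held for 5 (3.11%, against 3.29%). By rank, limma called none of the 1615 over both treatments and within saline libraries (0.0% of all regions in each). Within LPS libraries it called 6 of all 44474 regions (0.0135%), none of them far regions. The unadjusted limma p was under 0.05 at 84, 92 and 90 far regions in these 3 comparisons, which is 5.2%, 5.7% and 5.57% of them. Over all regions the shares were near these, at 4.97%, 5.18% and 5.77%. The difference of the LPS effect between MIA and control offspring gave no call (0.0% of all regions). An unadjusted limma p under 0.05 was found there at 60 far regions (3.72%, against 4.48% of all regions).

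Over both treatments, the far region with the smallest unadjusted rank p between offspring groups, which was not called, was chr5:53451763-53452248. It lies 104 kb from Rbpj, which encodes the DNA-binding factor of Notch signalling, and is open in all 23 libraries. CON_SAL read 26.0, 51.4, 33.0, 47.5 and 34.1, and MIA_SAL ranged from 49.0 to 64.9. CON_LPS ranged from 59.7 to 74.5 and MIA_LPS read 69.3, 70.8, 82.7, 83.0 and 78.1. Values were higher in MIA offspring after either treatment, with some overlap, by 13.1 (limma, unadjusted p = 0.000742, smallest adjusted p over all regions 0.946). The LPS difference of this region was 25.3 ± 3.57 (SE; limma adjusted p = 9.12e-07). By presence over both treatments, the smallest unadjusted exact p of a far region was 0.0278. One of the sites with it, chr1:64226109-64226458, 104 kb from Klf7, had a peak in all 5 MIA_LPS libraries, in 2 of the 7 from CON_LPS and in no saline library. Adjusted over all regions, the smallest exact p among far regions was 1.0 over both treatments.

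None of the 8 far regions that ranked highest was called after LPS by rank. They were picked for a high mean score, and a score near 100 leaves little room for a rise. No filter for repeated or artefact-prone sequence was applied here. Whether the signal at these sites is open chromatin was not tested. At chr3:5860352-5860823, with no annotated gene within it, and at 2 sites on chromosome 17 over the ribosomal RNA pseudogene Rn18s-rs5 (chr17:39843145-39846710 and chr17:39848095-39848835), the rank score was 100 in all 23 libraries after rounding. The authors' fold enrichment had a median over libraries of 49.1 at the first and of 4.12 and 3.68 at the other 2. At chr1:23255908-23257048, 109 kb from Ogfrl1, scores ranged from 95.2 to 99.8. At chr1:7397630-7398532, over the start of the lncRNA gene Gm26901, they ranged from 87.9 to 96.8. Just below, chr4:95161012-95161829 lies in the lncRNA gene Junos, 109 kb from Jun, an AP-1 subunit. CON_SAL read 85.5, 91.2, 91.9, 89.8 and 89.3 there and MIA_LPS 96.6, 89.3, 95.4, 94.7 and 91.5 (LPS difference 2.56 ± 1.15, SE; limma adjusted p = 0.105).

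Promoters of lncRNAs among the far regions showed both constant and changing sites. The Morrbid site (chr2:128428147-128429761), the start of a lncRNA known for its control of myeloid cell survival through the neighbouring gene Bcl2l11, was open in all 23 libraries with a mean rank score of 51.4 (LPS difference 6.69; limma adjusted p = 0.339). The Dubr site (chr16:50732208-50733074) had a mean score of 85.4 and an LPS difference of 2.54 (limma adjusted p = 0.287). The 5730522E02Rik site (chr11:26209987-26210798), 176 kb from Fancl, was open everywhere and fell by 19.7 in rank (limma adjusted p = 0.00026). At the Lncpint promoter (chr6:31218224-31218799), CON_SAL read 46.7, 13.4, 43.1, 44.2 and 8.54, and CON_LPS ranged from 0 to 36.8 (median 0). MIA_SAL ranged from 0 to 24.4 (median 3.74) and MIA_LPS read 0, 0, 0, 0 and 15.2, so the groups overlapped. Within MIA offspring the rank difference was −4.79 (limma adjusted p = 0.784). The exact presence test called it lower (adjusted p = 0.0455), and rank did not (limma adjusted p = 0.0749). At the Gm15232 promoter (chrX:167101772-167102375), 105 kb from Tmsb4x, CON_SAL read 22.3, 20.2, 36.7, 36.9 and 50.7, and CON_LPS ranged from 0 to 38.3 (median 0). MIA_SAL ranged from 0 to 54.6 (median 20.2) and MIA_LPS read 0, 0, 0, 0 and 22.1, again with overlap (exact adjusted p = 0.0455). At the Gm32990 promoter (chr13:110568519-110569464), CON_SAL read 0, 6.99, 0, 0 and 0, and CON_LPS ranged from 0 to 51.7 (median 14.1). MIA_SAL ranged from 0 to 27.2 (median 0) and MIA_LPS read 37.5, 18.5, 51.2, 23.6 and 7.01, also with overlap (exact adjusted p = 0.0442). The sites named in this paragraph were chosen after their values were seen.

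The far regions at the greatest distance included both kinds. The most distant, chr1:48881515-48881661, lay 1960 kb from Slc39a10 and was open in 7 libraries. CON_SAL read 51.7, 0, 59.2, 0 and 0.26 there and all MIA_LPS libraries were at 0 (limma adjusted p = 0.159). At chr2:46443125-46444172, 1330 kb from Zeb2, the score rose from 0 to 30.8 in CON_SAL and 6.95 to 19.8 in MIA_SAL to 45.7 to 65.8 in CON_LPS and 45.2 to 63.4 in MIA_LPS (difference 41.5 ± 5.35, SE; limma adjusted p = 1.52e-07). Saline and LPS libraries did not overlap. At chr5:59996583-59997126, 1810 kb from G6pd2 and open in all 23 libraries, scores ranged from 69.2 to 90.3 and fell by 6.61 after LPS (limma adjusted p = 0.0217), with groups that overlapped.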

How the data were processed

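ATAC-seq peak lists, 1 for each of 23 libraries, were used. The submitters' processing notes name mm10 and GRCm38 and the tools MACS2, Bowtie2, cutadapt, DiffBind, SAMtools and Picard, for which the sources used here give no version or setting. The lists have no header. From their values, the authors' deposited columns were read as a fold enrichment (a ratio), −log10 p, −log10 q and the summit's offset. The lowest deposited −log10 q was 1.301. Peaks were called for each library, and the peak values are the authors' own.

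On chromosomes 1 to 19 and X, the same number of best peaks by −log10 p was taken from every list, near the length of the shortest, and peaks sharing 1 bp were merged. Gene bodies came from RefSeq GRCm38.p6. Presence was tested with exact tests (SciPy 1.17.1) and rank scores with limma 3.58.1 in R 4.3.3 (trend and robust), each over the whole table. The procedures were tested on simulated data. A nearly complete change was mostly found, and that size was set after a smaller change had failed the first requirement. The smaller one, still a large difference between the groups, was often missed. A region that was not called may therefore still differ. Alternatives to each choice were run. No genome sequence was used, so motifs were searched in promoter windows only.

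The far regions, gene lists and tests were chosen with earlier results of these data known. Regions were named by rule: up to 10 called in each direction after LPS by adjusted p and then size, up to 3 more in each offspring group, those of smallest p between offspring groups, and the highest-ranked, the most distant, those over non-coding genes and those nearest the 100 kb limit. Replicate numbers did not pair libraries: correlations of same-numbered libraries' deviations from their group means ranged from −0.159 to 0.205. Libraries of different groups with the same middle identity number correlated at 0.0442 to 0.135 (6 pairs, median 0.0993). With different numbers the median was −0.00389 (191 pairs). No such number occurs in both control and MIA offspring, so the offspring groups are also separate sets of identity numbers.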

Additional observations from a re-analysis of the deposited data

Results flagged for a closer look

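Within groups of 4 to 10 libraries, a library was marked when its gap to the nearest other was large against the range of its group (Dixon's 95% limit). This marked 18 of 120 cases, where chance marks about 1 in 20. Of the summaries by library, the median rank score of open far regions was 46.7 in MIA_LPS 3, the highest of its group. The gap between the shares of far and near distal regions open was −3.15 points in CON_LPS 3, the smallest gap of its group, and −5.82 points in MIA_SAL 2, the widest.

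Among regions called after LPS, CON_LPS 2 was lowest at chr10:17347734-17348117 (29.3), CON_LPS 6 highest at chr15:62096576-62097155 (67.1) and MIA_SAL 4 lowest at chr8:89163098-89163472 (18.3). At the 4930471E19Rik promoter (chr10:120635803-120636502), CON_LPS 1 was highest (66.1) and MIA_LPS 5 lowest (39.1). At the distant pair between Pabpc4l and Pcdh18, CON_SAL 3 was lowest at both (17.1 at chr3:48100884-48101358 and 24.9 at chr3:48080458-48081098), and MIA_LPS 1 was lowest at the second (16.0). CON_SAL 3 carries an identity number of 01 to 03.

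The other marked values were at top-ranked regions. At chr17:39843145-39846710, CON_LPS 1 and MIA_LPS 4 were lowest, both at 100 after rounding. At chr18:68692064-68692259, MIA_SAL 1 (98.4) and MIA_LPS 3 (98.8) were lowest, and at chr6:3201429-3201590 it was CON_SAL 2 (97.4). At chr2:98662294-98662874, MIA_SAL 2 (69.8) and MIA_LPS 5 (67.6) were lowest.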

How the results depend on the processing

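The counts of far regions called after LPS moved with how many peaks were used, and the cause was not tested unless given. All deposited peaks gave 2547 far regions, with 49 called lower by presence, 164 lower by rank and 32 called in MIA offspring. Lists cut to 50% of their length gave 619 far regions, 86 higher and 56 lower by presence, 105 higher and 100 lower by rank, and 21 called in control offspring. By presence, 9.48% of all regions tested were called higher and 2.17% lower with all deposited peaks. With the lists cut to 50% these shares were 19.8% and 14.7%. A −log10 q of at least 5 gave 178 lower by rank. Where peaks had to cover 50% of a region, 48 were lower and 22 called in control offspring by presence, and 159 were higher and 94 lower by rank. Shares over all regions are not given for this setting. Without the filter on the attainable p, 63 were lower and none (0) was called in control or in MIA offspring alone, over a larger number of tests. Limits of 50 and 200 kb gave 3199 and 608 far regions.

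Without the libraries of identity numbers 01 to 03, presence called 134 higher and 112 lower, 85 in control offspring and 0 in MIA offspring, where 4 libraries a group allow no p of 0.01. Of all 9699 regions tested over both offspring groups in that run, 22.8% were called higher and 15.7% lower. Leaving out 1 library at a time gave 138 to 170 higher and 88 to 112 lower by presence, 43 to 62 in control and 51 to 73 in MIA offspring, 246 to 282 higher and 239 to 291 lower by rank, and 1569 to 1603 far regions. In each alternative run, 0 far regions were called between MIA and control offspring or for a different LPS effect. With a replicate block, rank called 279 higher and 263 lower, and 6 of 23 libraries correlated best with their own number; with the identity number as a block the counts were 284 and 268. Neither block moved a count by over 1.5 times. Read depth is unknown, so whether an absent peak is a closed site or one below detection cannot be told apart.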
